A study of Rattus norvegicus with 6 samples.

Results

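The genes of the mechanical stress response of cardiomyocytes were followed in the myocardium of male wild-type rats, which had either 30 min of ischemia by ligation of the left anterior descending artery and then 6 h of reperfusion (MI/RI, n = 3) or the sham operation (n = 3). The sham labels carry the same times, and neither the strain, the age nor the piece of the heart taken is given. Each library is called a rat here, though the labels do not say that each came from its own animal. The genes were chosen by symbol, and 9 of the 10 symbols were found, each as 1 row, among the 30452 rows of the deposited table (Ankrd1, Ankrd23, Csrp3, Nrap, Xirp1, Xirp2, Fhl2, Rcan1 and Lmcd1). The tenth gene, Fhl1, was not analysed here. Expression is given as FPKM, the fragments counted per kilobase of gene and scaled to the library, so that levels can be compared between genes.

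A cardiomyocyte senses load at the Z-disc and along titin, where the sarcomeres are anchored, and at the intercalated disc, where force passes to the next cell. Proteins with LIM domains or ankyrin repeats sit at these places and can also enter the nucleus, and their genes are well known to rise in hearts under pressure, stretch or injury. The calcium-dependent phosphatase calcineurin, which activates the NFAT transcription factors, is a second arm of this response, and Rcan1 is a familiar readout of it.

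The level of cardiomyocyte marker RNA differed between rats. Of 8 cardiomyocyte markers, 7 were in the table. Their summed level was 11148, 3871 and 3400 FPKM in the sham rats and 32619, 23392 and 22659 FPKM in the MI/RI rats (here and below in the order of replicates 1 to 3), so that sham replicate 1 stood well above the other sham rats and all MI/RI rats above all sham rats. The 13 mRNAs encoded by mitochondrial DNA took between 80.1% and 86.2% of the summed FPKM in the sham group and between 61.8% and 71.5% in the MI/RI group. In a unit relative to the library, a lower share of one class leaves more for the others, and values without these mRNAs are given after the single genes. Of 10 skeletal muscle markers, 7 were in the table. Their summed level was between 1.78 and 4.18 FPKM in the sham and between 0.788 and 2.62 FPKM in the MI/RI rats. The defining myosins Myh2 (at most 0.0419 FPKM) and Myh4 (0) were at or near 0, while Mylpf and Tnnt3 reached 1.89 and 1.46 FPKM. MI/RI replicate 3 stood apart in the atrial light chain Myl7, with 133.2 FPKM against at most 3.57 FPKM in the other 5 libraries. Absolute depth is unknown. Values of genes of low expression placed the depth of the sham libraries between 1 and 1.18 of that of sham replicate 1. The MI/RI libraries lay between 0.871 and 0.933, so that depth did not overlap between the groups.

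Of the 9 genes, 7 were called higher in MI/RI hearts, with an adjusted p under 0.05 (limma on log2(FPKM + 0.1), Benjamini-Hochberg adjustment over 10942 genes) and all 9 log2 fold changes were above 0, where 25.5% of all genes tested were called higher and 7.36% lower. The same 7 genes had every MI/RI value above every sham value, against 37.2% of all genes tested. Xirp1, Rcan1, Csrp3, Nrap and Ankrd1 had a log2 fold change above 2, Xirp2 and Fhl2 rose less, and Ankrd23 and Lmcd1 did not pass. The median log2 fold change of the 9 genes was 2.04, beside 0.29 for all genes tested. In bulk tissue, fewer cells of a type and less RNA per cell cannot be told apart. The summed cardiomyocyte markers were higher in the MI/RI group too, and levels relative to these markers are given after the single genes.

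**Figure D1:**
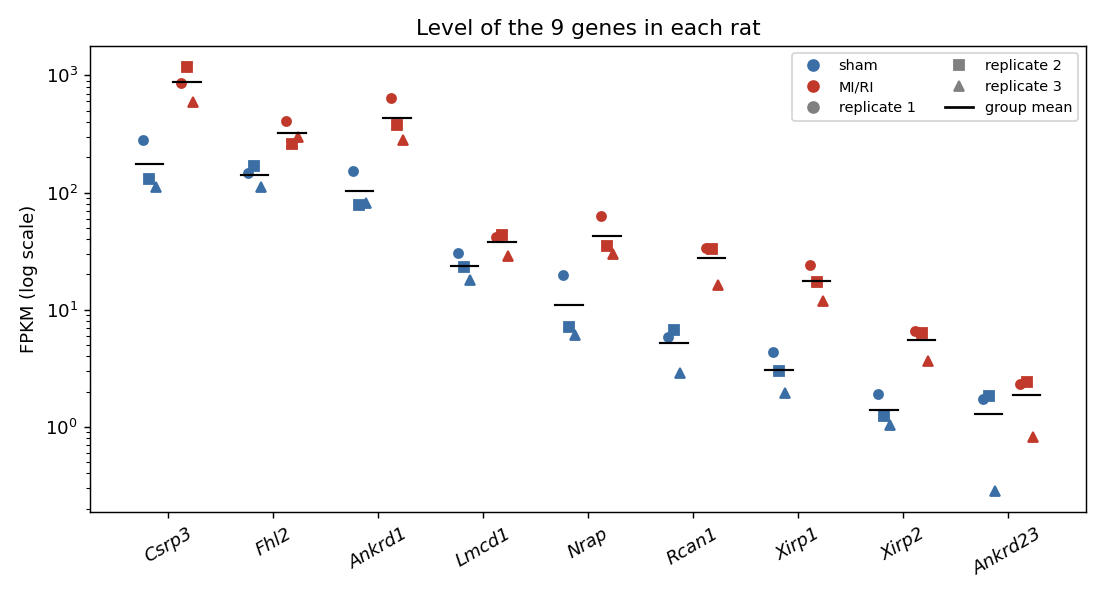
Level of the 9 genes in each rat, in FPKM on a log axis, ordered by the sham mean, with blue for sham, red for MI/RI, symbols for the replicate number and black bars for the group mean. Csrp3, Fhl2 and Ankrd1 lie above 78 FPKM in every rat, and only Lmcd1 and Ankrd23 have red symbols at or below the highest blue one.

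The levels of the 9 genes differed by 137.0 times between the highest and the lowest sham mean. Csrp3 (175.6 FPKM), Fhl2 (142 FPKM) and Ankrd1 (104.0 FPKM) formed the upper group in sham hearts, and their ranges overlapped from each to the next. A gap without overlap separated Ankrd1 from Lmcd1 (23.8 FPKM). Lmcd1, Nrap (11.0 FPKM), Rcan1 (5.18 FPKM) and Xirp1 (3.08 FPKM) followed, again each overlapping with the next, and Xirp2 (1.40 FPKM) and Ankrd23 (1.28 FPKM) were lowest. In the MI/RI group the order changed at 2 places. Ankrd1 (432 FPKM) stood above Fhl2 (322 FPKM), and Nrap (42.7 FPKM) above Lmcd1 (37.9 FPKM), but both pairs overlapped. Xirp2 (5.52 FPKM) lay clear of Ankrd23 (1.85 FPKM) in the MI/RI group, with no overlap of their ranges.

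The 2 ankyrin repeat proteins bind titin in the I-band and shuttle to the nucleus. Ankrd1 (ENSRNOG00000018598), also called CARP, was 152, 78.4 and 81.4 FPKM in the sham rats and 637, 380.0 and 278 FPKM in the MI/RI rats. The lowest MI/RI rat was 1.83 times the highest sham rat. The mean rose 4.15-fold, from 104.0 ± 41.8 to 432 ± 185 FPKM (SD, n = 3 each), and the log2 fold change was 2.04 ± 0.37 (SE, limma, adjusted p = 0.0049). Ankrd23 (ENSRNOG00000016151), its relative of low expression, was 1.73, 1.83 and 0.284 FPKM in the sham rats, against 2.32, 2.42 and 0.822 FPKM in the MI/RI rats. Replicate 3 was the lowest of both groups, and its MI/RI value lay under 2 of the sham values. The log2 fold change of 0.68 ± 0.62 (SE, limma, adjusted p = 0.42) was not larger than the spread between replicates, and it was −0.08 without sham replicate 3. The third gene of this family, Ankrd2, was below 0.12 FPKM in each sham rat and between 0.861 and 1.59 FPKM in the MI/RI rats, with a log2 fold change of 2.95 (adjusted p = 0.0030, limma).

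Csrp3 and Nrap encode LIM proteins that organise the ends of the sarcomere. Csrp3 (ENSRNOG00000014327), the muscle LIM protein of the Z-disc, was the most abundant of the 9 genes in both groups. It was 283, 132 and 112 FPKM in the sham rats and 855, 1177 and 593 FPKM in the MI/RI rats, with no overlap. The log2 fold change was 2.39 ± 0.39 (SE, limma, adjusted p = 0.0037), and the mean was 4.98-fold higher. Nrap (ENSRNOG00000016714), the nebulin-related anchoring protein that links myofibrils to the intercalated disc, was 19.7, 7.07 and 6.11 FPKM in the sham rats and 63.5, 34.7 and 29.8 FPKM in the MI/RI rats. Sham replicate 1 was more than double the other sham rats but still under every MI/RI rat. Its log2 fold change was 2.08 ± 0.45 (SE, limma, adjusted p = 0.0086), and 2.60 without sham replicate 1.

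The Xin repeat proteins bind actin filaments at the intercalated disc. Xirp1 (ENSRNOG00000037085) had the largest log2 fold change of the 9 genes and the widest gap between the groups. It was 4.33, 2.97 and 1.94 FPKM in the sham rats and 23.9, 17.3 and 11.8 FPKM in the MI/RI rats, so that the lowest MI/RI rat was 2.73 times the highest sham rat. The log2 fold change was 2.50 ± 0.34 (SE, limma, adjusted p = 0.0026), and 146 of the 10942 genes rose more. Xirp2 (ENSRNOG00000034258) was 1.92, 1.23 and 1.04 FPKM in the sham rats and 6.57, 6.31 and 3.67 FPKM in the MI/RI rats. Its log2 fold change was 1.90 ± 0.30 (SE, limma, adjusted p = 0.0035), with 4.29% of all genes rising more.

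The 250 bases before the RefSeq start sites (build GRCr8) are shown for Xirp1 and Xirp2, since both genes rose and hold the same pair of motifs. Capitals mark an AP-1 site (TGANTCA), which Fos and Jun proteins bind, and a MEF2 site, which the muscle factor MEF2 binds. The Xirp1 sequence is chr8:128635012-128635261 on the minus strand and that of Xirp2 is chr3:72533936-72534185 on the plus strand.
Xirp1: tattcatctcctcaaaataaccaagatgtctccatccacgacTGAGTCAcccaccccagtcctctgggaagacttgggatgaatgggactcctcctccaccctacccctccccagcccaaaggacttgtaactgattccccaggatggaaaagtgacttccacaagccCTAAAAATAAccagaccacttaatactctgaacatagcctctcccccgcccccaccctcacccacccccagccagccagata
Xirp2: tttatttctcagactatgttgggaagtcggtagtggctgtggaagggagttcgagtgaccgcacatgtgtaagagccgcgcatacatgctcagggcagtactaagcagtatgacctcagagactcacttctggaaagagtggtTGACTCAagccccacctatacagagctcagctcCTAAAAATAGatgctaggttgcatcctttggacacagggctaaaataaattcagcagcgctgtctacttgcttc
RefSeq gives Xirp1 2 further start sites, of which the nearby one shares these bases and the other, inside the gene, had neither motif. In both sequences the AP-1 site lies further from the start site than the MEF2 site. The MEF2 matches start 82 and 74 bases before the start sites and read CTAAAAATAA in Xirp1 and CTAAAAATAG in Xirp2.

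Fhl2 (ENSRNOG00000016866), a protein of LIM domains that binds titin and several transcription factors, was abundant and had the smallest rise among the 7 genes called. It was 148, 168 and 112 FPKM in the sham rats and 406, 259.8 and 299.8 FPKM in the MI/RI rats, which did not overlap. The mean went from 142 ± 28.3 to 322 ± 75.3 FPKM (SD, n = 3 each), or 2.26-fold. The log2 fold change was 1.17 ± 0.27 (SE, limma, adjusted p = 0.011), and 14.8% of all genes rose more. Without sham replicate 3 it was 1.01 with an adjusted p of 0.054 (limma).

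RefSeq lists 2 start sites for Fhl2 on the minus strand of chromosome 9, and the bases before both are shown because each holds a CArG box, the site of serum response factor (SRF). Fhl2 was the only one of the genes with a promoter entry that had this motif. Capitals mark the CArG box and, before the outer start site, a joined M-CAT element (CATTCC), which the TEAD factors bind, and MEF2 site. The outer sequence is chr9:52954541-52954790 and the inner one is chr9:52923327-52923576.
Fhl2, outer start: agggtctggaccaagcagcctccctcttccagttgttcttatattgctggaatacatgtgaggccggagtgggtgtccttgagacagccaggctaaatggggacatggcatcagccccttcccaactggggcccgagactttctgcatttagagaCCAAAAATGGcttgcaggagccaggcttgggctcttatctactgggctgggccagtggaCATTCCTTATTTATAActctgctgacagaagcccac
Fhl2, inner start: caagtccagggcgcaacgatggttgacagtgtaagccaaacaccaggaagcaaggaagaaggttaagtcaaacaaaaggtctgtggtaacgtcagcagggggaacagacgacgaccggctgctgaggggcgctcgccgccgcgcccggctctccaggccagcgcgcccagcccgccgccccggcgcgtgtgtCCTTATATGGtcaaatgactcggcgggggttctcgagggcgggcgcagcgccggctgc
The table cannot assign the FPKM of Fhl2 to either start site.

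Rcan1 and Lmcd1 belong to the calcineurin arm. Rcan1 (ENSRNOG00000001979), which binds and restrains calcineurin and is itself induced by NFAT, was 5.88, 6.77 and 2.88 FPKM in the sham rats and 33.6, 33.2 and 16.3 FPKM in the MI/RI rats. Replicate 3 was the lowest of each group, and the lowest MI/RI rat was still 2.41 times the highest sham rat. The mean rose 5.35-fold and the log2 fold change was 2.41 ± 0.38 (SE, limma, adjusted p = 0.0035). Lmcd1 (ENSRNOG00000005690), a LIM protein that restrains GATA6 and is known to promote calcineurin signaling, was 30.6, 23.0 and 17.8 FPKM in the sham rats and 41.6, 43.3 and 28.9 FPKM in the MI/RI rats. MI/RI replicate 3 lay under sham replicate 1, and the log2 fold change of 0.68 ± 0.28 (SE) had an adjusted p of 0.084 (limma).

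For Rcan1, the bases before a RefSeq start site that lies inside the gene are shown. They hold the NFAT core GGAAA on both strands and an AP-1 site, all in capitals. The sequences shown for Xirp1 and Xirp2 also hold the NFAT core and an AP-1 site, but the core is not in capitals there. The sequence is chr11:45118237-45118486 on the minus strand. No other start site of Rcan1 had a promoter entry, and the FPKM of Rcan1 cannot be assigned to a start site.
Rcan1: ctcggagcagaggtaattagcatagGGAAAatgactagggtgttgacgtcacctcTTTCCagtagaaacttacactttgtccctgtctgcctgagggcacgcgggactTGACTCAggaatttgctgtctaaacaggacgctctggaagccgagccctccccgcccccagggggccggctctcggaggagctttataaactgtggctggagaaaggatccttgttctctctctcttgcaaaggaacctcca
Of the 9 genes, 6 had an entry in the promoter table. The AP-1 site was found in 3 of them (Xirp1, Xirp2 and Rcan1) and in 6.99% of all genes of the promoter table, and the MEF2 site in 3 (Xirp1, Xirp2 and Fhl2) and in 3.32%. Counted by promoter, the shares were 6.34% and 2.96% of 33469. The CArG box was found in 1.62% of all genes and the M-CAT element in 12.9%, with Ankrd23 as its second holder here. The NFAT core, at 58.6%, is common and was found in 5 of the 6. Lmcd1 held the NFAT core alone and Ankrd23 the NFAT core and the M-CAT element. Both strands were searched, the MEF2 site and the CArG box allow several letters, and a match of letters does not show binding.

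For the 9 genes, replicates 1 and 3 deviated in the same direction in both groups. Replicate 1 was the highest of its group for 6 of the 9 genes in the sham and in the MI/RI group, and replicate 3 was the lowest for 8 in both groups. The median deviation of the 9 genes from their group means was 0.55 on the log2 scale in sham replicate 1, −0.01 in sham replicate 2 and −0.52 in sham replicate 3, and it was 0.36, 0.21 and −0.52 in MI/RI replicates 1 to 3. Within the 3 pairs of the same number, MI/RI was above sham in every pair for all 9 genes, which 44.6% of the genes tested also showed. Xirp1 differed least from pair to pair, with log2 differences of 2.44, 2.50 and 2.54, whereas Csrp3 ranged from 1.59 in pair 1 to 3.16 in pair 2. In a fit with a replicate block, in which rats of one number are paired, 8 of the 9 genes were called higher, against 28.2% of all genes. The gene gained was Lmcd1, whose adjusted p was 0.027 (limma) with the pairs 0.44, 0.91 and 0.70. Ankrd23, with 0.40, 0.38 and 1.26, had an adjusted p of 0.10 (limma) in that fit.

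**Figure D2:**
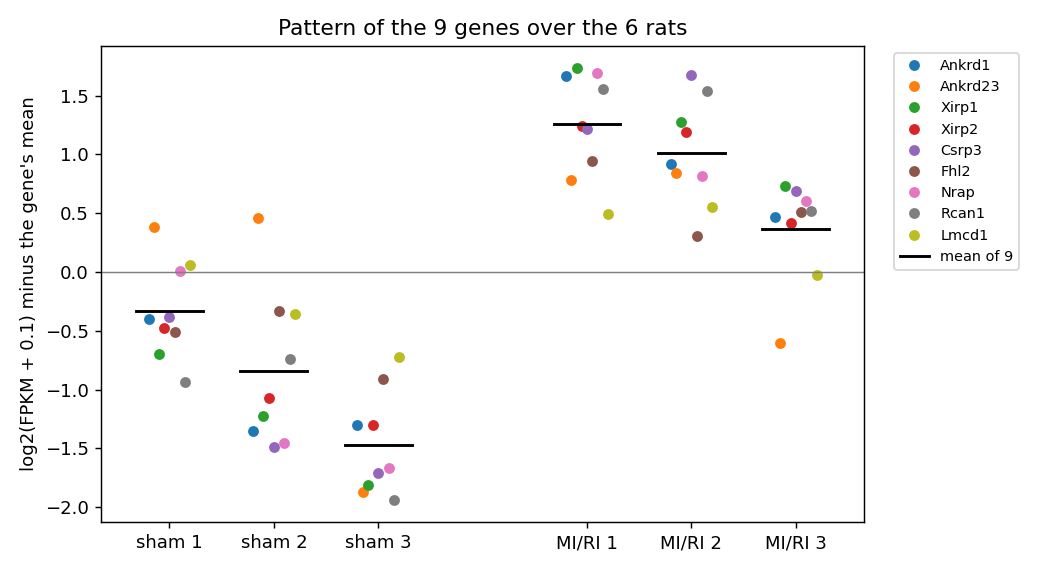
Log2(FPKM + 0.1) of each gene minus its mean over the 6 rats, one coloured point per gene and a black bar for the mean of the 9 genes in each rat. The black bars run from −1.47 in sham replicate 3 to 1.26 in MI/RI replicate 1, and Ankrd23 lies above 0 in sham replicates 1 and 2, as Nrap and Lmcd1 do in sham replicate 1.

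Ratios of 2 genes within a rat do not depend on the scaling of the library, and 4 pairs were compared. The ratio of Rcan1 to Lmcd1 was 0.192, 0.294 and 0.162 in the sham rats and 0.808, 0.766 and 0.563 in the MI/RI rats. On the log2 scale it was higher by 1.73 in the MI/RI group, without overlap. The ratio of Xirp1 to Xirp2 also did not overlap, at 2.26, 2.41 and 1.86 in the sham rats and 3.64, 2.74 and 3.22 in the MI/RI rats, a log2 difference of 0.59. Both gave p = 0.1 in the two-sided exact permutation test, the smallest that 3 rats against 3 allow, and 0.20 after adjustment over the 4 ratios. Csrp3 to Nrap differed by 0.31 and Ankrd1 to Ankrd23 by 1.36 on the log2 scale, both with overlap (two-sided exact permutation test, p = 0.5 and p = 0.2). The difference in Ankrd1 to Ankrd23 depended on the amount added to the FPKM, which was 0.1. It was 1.67 with 1 added and 1.27 with 0.01 added (two-sided exact permutation test, p = 0.1 and p = 0.3). Between rats of the same number, Ankrd1 to Ankrd23 was higher in MI/RI in all 3 pairs (1.66, 1.89 and 0.51) and Csrp3 to Nrap in 2 of them (−0.09, 0.88 and 0.13).

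**Figure D3:**
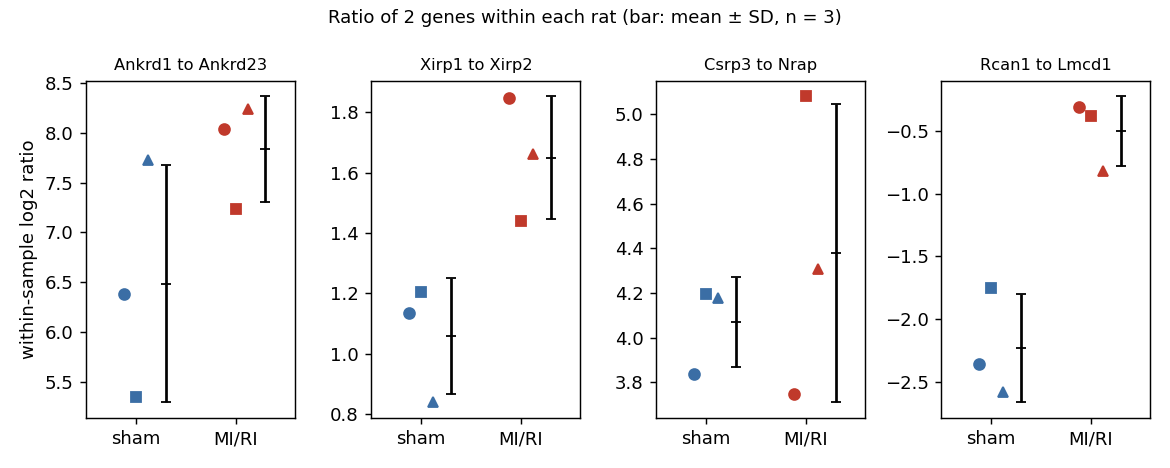
Within-sample log2 ratio of 4 pairs of genes, one panel per pair with its own axis, blue symbols for sham and red for MI/RI rats, and bars for the mean ± SD (n = 3). The groups are separate for Xirp1 to Xirp2 and for Rcan1 to Lmcd1, and overlap for the other 2 pairs.

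Against the mean log2 level of the 7 cardiomyocyte markers in the same rat, 6 of the 9 genes overlapped between the groups. The differences were 0.23 for Xirp1, 0.14 for Rcan1, 0.12 for Csrp3, −0.19 for Nrap, −0.23 for Ankrd1 and −0.36 for Xirp2. Fhl2 (−1.10), Ankrd23 (−1.58) and Lmcd1 (−1.58) were lower relative to the markers, without overlap between the groups (p = 0.1 each by the exact two-sided permutation test, the smallest possible). With all genes centred on the markers, these 3 were called lower (limma), as were 81.3% of all genes. In this centring the middle value over all genes tested lay at −1.98, under each of the 9 genes. The share of all genes without overlap on this scale was not counted, so the 6 and the 3 have no background. When each library was rescaled with the mRNAs of mitochondrial DNA left out, the all-gene median of the log2 fold change went from 0.29 to −0.46, and that of the 9 genes was 1.25. In that scaling 6 of the 9 were called higher, with 7.25% of all genes, while Fhl2 did not pass at 0.39 (adjusted p = 0.27, limma) and Ankrd23 and Lmcd1 were at −0.02 and −0.10. After quantile normalization 5 of the 9 were called higher, with 13.2% of all genes. The order changed, with Xirp2 (1.68) above Csrp3 (1.40) and Ankrd23 (0.56) above Fhl2. Fhl2 was then at 0.20 (adjusted p = 0.55, limma) and Nrap at 1.36 with an adjusted p of 0.050 (limma), just above the threshold and not called.

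**Figure D4:**
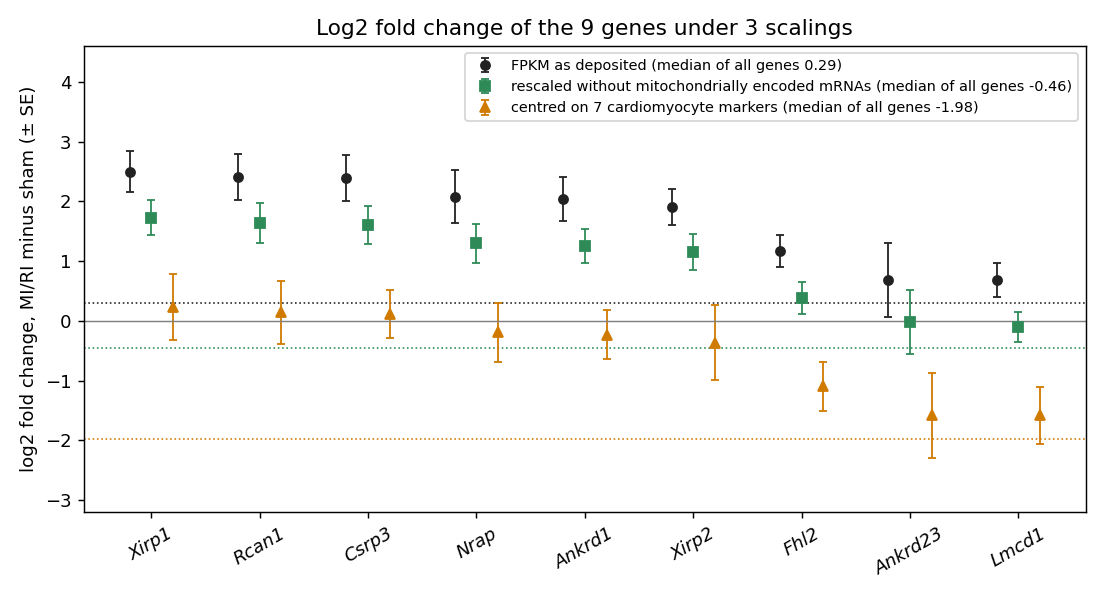
Log2 fold change of the 9 genes (MI/RI minus sham) with its standard error under 3 scalings, with a dotted line for the median of all genes in each. Centring on the markers takes the same amount from every gene, and the values of Xirp1, Rcan1 and Csrp3 go from above 2 on the deposited scale to between 0.12 and 0.23 when centred on the cardiomyocyte markers.

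Partners of the 9 genes were counted from lists, against 25.5% called higher, 7.36% called lower and a median of 0.29 among all genes tested. Of the 14 titin and Z-disc partners tested, 11 rose and 1 fell, with a median log2 fold change of 1.48. The largest was that of filamin C, Flnc, which Xin proteins bind (3.07, from between 1.48 and 2.10 FPKM to between 7.83 and 25.1 FPKM), followed by the α-actinin gene Actn2 (2.46) and the chaperone gene Cryab (2.16). Trim63, the muscle ubiquitin ligase MuRF1, fell from 24.3, 31.3 and 17.2 FPKM to 17.2, 12.3 and 10.6 FPKM (log2 fold change −0.85, adjusted p = 0.047, limma). Pdlim3 (0.57) and titin itself, Ttn (0.68), did not pass. Of 7 relatives from the same protein families that were tested, 4 rose, which were Ankrd2, Rcan2 (2.01), Fhl3 (0.95) and Csrp1 (0.89), and 3 did not pass (Rcan3 0.05, Csrp2 −0.26 and Nebl −0.71).

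Of 13 genes of calcineurin and NFAT tested, 3 rose and 1 fell, with a median log2 fold change of 0.27, so that counts and median were near those of all genes. Those that rose were Rcan2, the second calcineurin regulator (6.21 to 11.9 FPKM in the sham and 25.4 to 53.8 FPKM in the MI/RI rats), Myoz2 (1.44), which anchors calcineurin at the Z-disc, and the calmodulin gene Calm2 (0.84). Nfatc4 fell from 1.97, 1.77 and 1.88 FPKM to 1.02, 1.28 and 0.910 FPKM (log2 fold change −0.76, adjusted p = 0.034, limma). The values of Nfatc2 (0.88), Nfatc3 (−0.64), Cabin1 (−0.06) and the catalytic subunits Ppp3ca (0.43), Ppp3cb (0.14) and Ppp3cc (0.22) did not pass.

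Among 10 genes for SRF and cardiac transcription factors, 3 rose, near the share of all genes called higher. Srf was 2.22, 2.66 and 2.09 FPKM in the sham rats and 12.0, 11.9 and 7.27 FPKM in the MI/RI rats (log2 fold change 2.08, adjusted p = 0.0017, limma), and its coactivator gene Mrtfa was 0.01. Nkx2-5 rose by 2.50 and Gata4 by 1.13, the latter at an adjusted p of 0.050 (limma), just under the threshold. The MEF2 genes Mef2a (0.43), Mef2c (0.22) and Mef2d (0.47) and Gata6 (−0.05) did not pass. Of 11 genes of the YAP and TEAD axis, of which Ankrd1 is a known target, 2 rose, a share no higher than that of all genes. Both encode secreted matricellular proteins, Ccn1 (3.41, from at most 8.09 FPKM to at least 32.5 FPKM) and Ccn2 (1.04), while Tead4 (0.89), Wwtr1 (0.04), Tead2 (−0.56) and Lats1 (−0.61) did not pass.

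At the junctions, 8 of 18 partners tested rose and 10 did not pass, with a median log2 fold change of 0.64. Itgb1bp2, or melusin, an integrin-binding stretch sensor (1.63), the desmoplakin gene Dsp (1.56) and the N-cadherin gene Cdh2 (1.36) were highest, and Tjp1 (−0.60), Pxn (0.04) and Ctnnb1 (0.07) were lowest and did not pass. Of 8 genes listed for haemodynamic load, 5 were called higher, led by the skeletal actin gene Acta1 (2.90), Tnnc1 (2.73) and Myh6 (2.68). Atp2a2 (2.29) and Rgs2 (2.14) were the others called. The list was not sorted by the direction in which load moves each gene, so the count is not one of load responses. Myh6 is also one of the cardiomyocyte markers, and a response to load was not tested. The natriuretic peptide gene Nppa did not pass (0.21). It was 65.3 FPKM in sham replicate 1 and 78.4 FPKM in MI/RI replicate 1, and between 5.71 and 9.81 FPKM in the other 4 rats. Nppb was 160.4, 30.4 and 8.09 FPKM in the MI/RI rats and between 7.87 and 17.3 FPKM in the sham rats, and Myh7 was 667 FPKM in sham replicate 1 and at most 318 FPKM elsewhere. Neither passed (1.66 and 0.42).

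The counts of these lists depended on the scaling. Without the mRNAs of mitochondrial DNA, where 7.25% of all genes were called higher, the 14 titin and Z-disc partners had 4 called higher and 1 lower (median 0.70), the 7 relatives 2 and 1 (0.11) and the 8 load genes 5 called higher (1.44). The calcineurin and NFAT list then had 1 gene called higher and 2 lower (median −0.47), the junction list 1 and 3 (−0.13), the YAP and TEAD list 1 and 2 (−0.45), and the list of SRF and cardiac factors 2 and 1 (−0.19). Flnc, Ankrd2, Rcan2, Srf, Nkx2-5, Ccn1 and Acta1 were called higher in that scaling too, while Fhl3, Csrp1, Calm2, Myoz2, Gata4 and Ccn2 were not. With the replicate block, Nfatc4 did not pass (adjusted p = 0.053, limma), whereas Ttn (0.034), Jup (0.030), Tead4 (0.047) and Nppb (0.018) did.

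**Figure D5:**
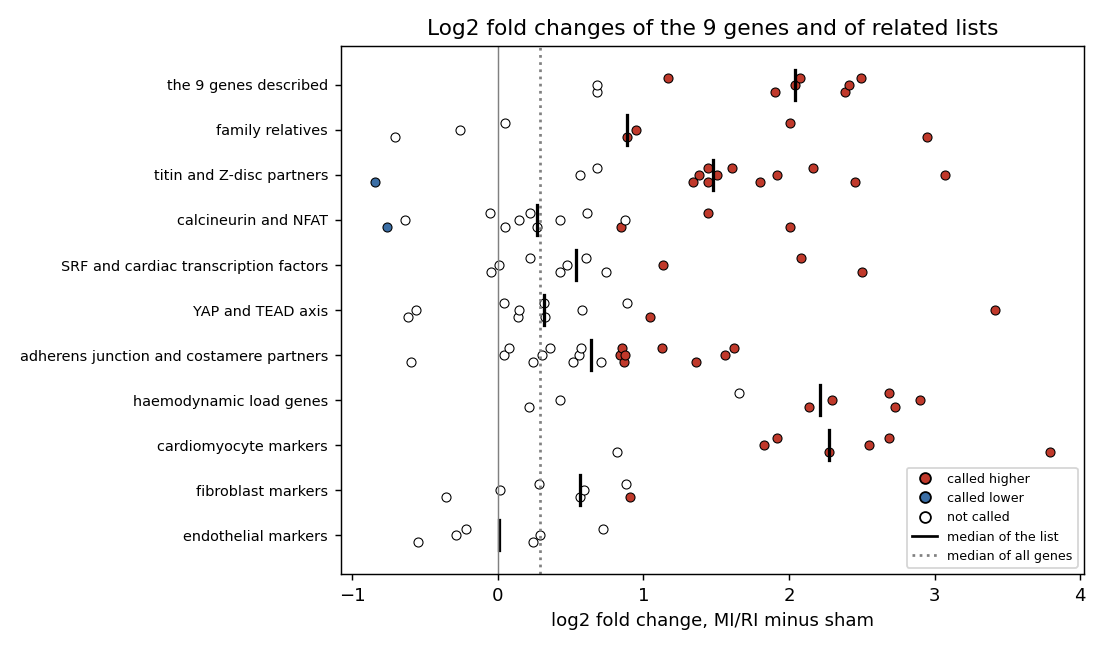
Log2 fold change (MI/RI minus sham) of the 9 genes and of the genes tested in 10 related lists, with red for genes called higher, blue for lower, white for neither, black bars for the median of a list and a dotted line for the median of all genes (0.29). The 9 genes have a median of 2.04, close to the 2.28 of the cardiomyocyte markers.

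Markers of other cell types were counted in the same way. The median log2 fold change was 2.28 for the cardiomyocyte markers (6 of 7 called higher), 0.57 for 7 fibroblast markers (1 called higher) and 0.01 for 6 endothelial markers, all between −0.55 and 0.72, of which none passed (limma, with 2 at an unadjusted p under 0.05 and the lowest adjusted p of 0.050 for Kdr, which passed with the replicate block at 0.045). The summed endothelial markers were between 160.3 and 215 FPKM in the sham rats and between 158 and 202 FPKM in the MI/RI rats. These medians and counts depended on the scaling too. Without the mRNAs of mitochondrial DNA, the fibroblast median was −0.22 (2 called lower) and the endothelial median −0.77 (3 called lower). The cardiomyocyte median was then 1.49 (5 called higher). After quantile normalization these medians were −0.49 (2 called lower), −0.90 (5 called lower) and 1.47 (6 called higher). Of all 10942 genes, 2857 and 1559 were called lower in these scalings. Of 6 smooth muscle and pericyte markers, 1 was called higher and 1 lower, and of 6 neutrophil and monocyte markers tested, 3 were called higher (median 1.31). Of these 6, 5 had a log2 fold change above 0. The sixth, Ptprc, was at −0.93 and did not pass, with every MI/RI value below every sham value. Without the mRNAs of mitochondrial DNA, Ptprc was called lower (adjusted p = 0.016, limma). The 2 skeletal muscle markers above the filter, Mylpf (−0.81) and Tnnt3 (−1.15), did not pass, and Tnnt3 was called lower with the replicate block (adjusted p = 0.026, limma), where the atrial Myl7 was called higher (0.027). Red cell RNA (Hba-a2) did not pass (0.06). Of 3 atrial markers, Sln was called higher, from 0.280 to 1.08 FPKM in the sham and 1.46 to 3.52 FPKM in the MI/RI rats. The 7 genes were called higher without MI/RI replicate 3 too, the library with high Myl7.

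The genes outside the 9 whose centred log2 values over the 6 rats lay nearest to the mean of the 9 were Scfd2 (Euclidean distance 0.34), F3 (0.35), Nudt19 (0.38), Pla2g12a (0.39) and Tmem179 (0.39). Their log2 fold changes were between 1.58 and 1.91. Among the 9 themselves, Xirp2 was nearest to the common mean (0.38) and Ankrd23 farthest (1.89). The tissue factor gene F3, for example, was 1.35, 1.30 and 0.693 FPKM in the sham rats and 5.25, 4.29 and 2.49 FPKM in the MI/RI rats.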

How the data were processed

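RNA from 3 sham and 3 MI/RI samples of myocardium was sequenced from stranded total RNA libraries. The authors deposited 1 table of FPKM values. STAR and HTSeq are named in the submitters' processing notes, and versions, genome build, annotation and the total divided by are not given in the sources used here. Depth was compared through genes with a mean FPKM under 0.05, of which 88.2% of 1705 took whole multiples of the lowest value above 0, or of 0.5 of it, once depth was divided out (tolerance 0.05). The smallest values therefore carry counting noise that cannot be given as an interval.

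Rows that shared a symbol were summed. Log2(FPKM + 0.1) of the 10942 genes with a mean of at least 0.5 FPKM was compared with limma 3.58.1 in R 4.3.3 (intensity trend, Benjamini-Hochberg adjustment, threshold 0.05), which was checked on simulated data. Each fold change understates the change of low genes. Single values were tested by exact permutation, two-sided (SciPy 1.17.1). The labels tie no replicate number to an animal, litter or day, and p-values measure the spread between these samples. The reported fit has no replicate block, since the study's methods name none. A check of the data did not settle whether the replicate numbers in the labels pair the samples. The deviations of same-numbered samples correlated at 0.203, 0.117 and 0.118 across genes. Sham replicate 3, however, correlated at 0.12 with MI/RI replicate 2 too. The 9 genes and the lists were chosen with earlier results of these data known, as were the motifs searched in the RefSeq promoters. Named from each list are its 3 highest and 3 lowest genes. The calcineurin subunits, Calm2, Jup, Kdr, Mylpf, Tnnt3, Mef2a, Mef2d, Atp2a2, Rgs2 and Ptprc were named after their values were seen. The alternatives were other pseudocounts, filters, scalings and thresholds, the trend, the replicate block, the row kept per symbol, and leaving out each rat.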

Additional observations from a re-analysis of the deposited data

How the results depend on the processing

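The count of 7 genes called higher lay between 5 and 8 under every alternative except centring on the cardiomyocyte markers, where it was 0 and 3 were called lower. Leaving out 1 rat gave 6 to 8 called higher and 0 called lower. Centring on the markers gave log2 fold changes of −0.23 for Ankrd1, −1.58 for Ankrd23, 0.23 for Xirp1, −0.36 for Xirp2, 0.12 for Csrp3, −1.10 for Fhl2, −0.19 for Nrap, 0.14 for Rcan1 and −1.58 for Lmcd1, since it takes the same amount from every gene. Rescaling without the mitochondrially encoded mRNAs gave 0.39 for Fhl2, −0.024 for Ankrd23 and −0.10 for Lmcd1, and quantile normalization 0.20, 1.36 and −0.19 for Fhl2, Nrap and Lmcd1. Lmcd1 was called at 0.68 with the replicate block and at 0.88 after rescaling to TPM. The block changed no other call among the 9 genes.

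With 1 rat left out, the log2 fold changes ranged from 1.71 to 2.35 (Ankrd1), −0.081 to 1.16 (Ankrd23), 2.21 to 2.77 (Xirp1), 1.73 to 2.17 (Xirp2), 2.13 to 2.79 (Csrp3), 0.99 to 1.31 (Fhl2), 1.75 to 2.60 (Nrap), 2.04 to 2.75 (Rcan1) and 0.49 to 0.88 (Lmcd1). Fhl2 lost its call without sham replicate 3, and Lmcd1 gained one without sham replicate 1 (adjusted p = 0.034, limma). The within-sample log2 ratios ranged from 0.79 to 1.98 (Ankrd1 to Ankrd23), 0.48 to 0.70 (Xirp1 to Xirp2), −0.043 to 0.62 (Csrp3 to Nrap, whose sign turned) and 1.55 to 1.97 (Rcan1 to Lmcd1). Against the markers, a pseudocount of 1 moved Xirp2 to −0.82 and turned Xirp1 to −0.067 and Rcan1 to −0.044, and with 1 rat left out Csrp3 ranged from −0.22 to 0.31 and Rcan1 from −0.19 to 0.50.

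Over all genes, 2790 were called higher and 805 lower. The counts were 35 and 8901 after centring on the markers, 793 and 2857 after rescaling without the mitochondrially encoded mRNAs, 1441 and 1559 after quantile normalization, 1185 and 211 at an adjusted p under 0.01, and 377 and 73 for a log2 fold change past 2 with an unadjusted p under 0.01. The number called lower was 1554 after centring on the median, 166 at a mean FPKM of at least 5 and 504 after rescaling to TPM. Leaving out 1 rat gave 1528 to 2557 higher and 309 to 881 lower, the fewest without sham replicates 3 and 2. Of the calls, 77.6% were higher as reported, 87.3% with TPM, 91.9% for genes with a mean of at least 5 FPKM, 56.5% with the median as the centre, 48.0% after quantile normalization, 21.7% without the mitochondrially encoded mRNAs and 0.39% when centred on the markers.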
